A study of Mus musculus with 30 samples.

Results

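Interferon-induced genes are the genes that cells switch on when interferons, the signalling proteins of antiviral defence, reach their receptors. This account follows 43 of them in mouse liver. The members are a list of symbols, put together with values of these libraries already known, so they were selected on readouts of this series and not independently of them. All 43 were found in both count tables, among 54429 genes in the time course and 55471 genes in the genotype experiment.

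The time course held 18 libraries of wild type C57BL/6J liver, 1 at each of ZT1, 5, 9, 13, 17 and 21 at 2, 6 and 12 months of age. Zeitgeber time (ZT) counts hours from lights on in a 12-hour light, 12-hour dark cycle. The genotype experiment held 12 libraries, 1 for each combination of genotype, age and time of collection. Its libraries labelled KO came from mice in which Alb-Cre, a recombinase driven by the albumin promoter of hepatocytes, met a floxed Egr-1 gene, and its libraries labelled WT came from littermates. The line began on strain 129 and was backcrossed to C57BL/6J, the mice were male, and other liver cells keep the gene. Mice of 2, 6 and 12 months were collected at the highest (H) and lowest (L) time of Egr-1 protein, which was ZT13 and ZT17 at 2 months, ZT9 and ZT21 at 6 months, and ZT5 and ZT21 at 12 months. Clock time and age therefore cannot be told apart in that experiment against 2 months, nor in the H libraries, while the L libraries of 6 and 12 months share ZT21. The study names several mice per group, but the labels do not tie mice to libraries, and no group had more than 1 library, so time points or pairs stand in for replicates and p-values measure the spread between them.

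The libraries held 13375400 to 16557400 counts in the time course. They held 13747700 to 21749000 counts in the genotype experiment, where the H libraries began at 18764500 and the L libraries ended at 16634000. Levels are given as CPM, the usual count rate relative to the library total, with totals scaled by TMM, and the 95% interval of a single library is an exact Poisson interval that covers counting error only. The targeted gene did not follow the labels in every pair. Egr1 stood at 6.11 CPM in the 12-month H library labelled KO and at 5.86 CPM in its WT partner. In the 2-month L pair it stood at 7.37 CPM in the library labelled KO and at 1.45 CPM in the one labelled WT. The other 4 pairs were lower in the library labelled KO. Among them the 2-month H pair was close, at 1.97 CPM in KO and 2.55 CPM in WT. Its Poisson intervals, 1.42 to 2.68 CPM and 1.89 to 3.37 CPM, overlapped. Directions between genotypes are therefore those of the labels.

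Type I interferons act through the receptor chains Ifnar1 and Ifnar2, and interferon gamma acts through Ifngr1 and Ifngr2. JAK kinases at these receptors activate STAT proteins. The type I complex, which holds Stat2 and Irf9, binds the interferon-stimulated response element in promoters, whereas the interferon gamma signal ends at the gamma-activated site. Irf7 raises the production of further interferon, and Usp18 shuts the type I receptor down again. In liver both hepatocytes and resident immune cells carry these receptors, and a bulk library cannot tell fewer cells of a type from less RNA per cell.

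Response elements are shown first. The rule did not use promoter sequence, but its symbols are those of genes known as interferon-induced. The shares below therefore describe the list and are no independent test of it. RefSeq promoters on GRCm38.p6, from 250 bases before to 50 bases after the start, were at hand for 30 of the 43 genes. The response element was searched as GAAANNGAAA on both strands, and overlapping matches were kept. It lay in the window of 20 of these 30 genes, or 66.7%, whereas 3.99% of all 27025 genes had it in a window. The gamma-activated site, searched as TTCNNNGAA, lay in the window of 4 of the 30 genes and of 9.55% of all genes. The 4 were Oas1a, Bst2, Igtp and Ifit2. A site for Egr-1, searched as GCGNGGGCG, lay in the window of 0 of the 30 genes and of 6.27% of all genes. That only says that these letters are not in these windows.

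The 250 bases before the start are given for 4 genes that hold matches and that fell with age in the time course. Capitals mark each match to the response element on either strand, and each sequence runs 5′ to 3′ along its gene. Ifit1 lies on the plus strand at chr19:34640639-34640888 and Ifit3 on the plus strand at chr19:34583279-34583528. Isg15 lies on the minus strand at chr4:156200819-156201068 and Rsad2 on the minus strand at chr12:26456453-26456702.
Ifit1: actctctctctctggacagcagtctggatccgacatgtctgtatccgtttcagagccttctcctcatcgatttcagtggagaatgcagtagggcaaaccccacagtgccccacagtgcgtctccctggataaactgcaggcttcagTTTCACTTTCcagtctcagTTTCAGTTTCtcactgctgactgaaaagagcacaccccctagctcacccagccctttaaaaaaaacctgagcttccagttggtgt
Ifit3: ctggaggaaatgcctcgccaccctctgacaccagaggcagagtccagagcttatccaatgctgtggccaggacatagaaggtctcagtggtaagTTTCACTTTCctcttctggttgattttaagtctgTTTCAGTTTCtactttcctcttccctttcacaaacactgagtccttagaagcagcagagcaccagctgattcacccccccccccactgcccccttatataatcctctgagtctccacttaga
Isg15: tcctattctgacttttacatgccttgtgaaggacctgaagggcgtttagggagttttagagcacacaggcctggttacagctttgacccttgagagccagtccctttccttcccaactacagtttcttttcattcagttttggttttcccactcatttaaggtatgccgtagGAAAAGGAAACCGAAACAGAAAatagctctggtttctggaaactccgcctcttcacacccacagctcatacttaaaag
Rsad2: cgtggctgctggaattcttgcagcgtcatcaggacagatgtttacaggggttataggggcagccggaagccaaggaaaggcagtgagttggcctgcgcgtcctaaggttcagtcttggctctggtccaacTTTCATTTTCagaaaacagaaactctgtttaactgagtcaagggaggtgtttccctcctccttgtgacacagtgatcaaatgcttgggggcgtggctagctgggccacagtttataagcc

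The matches stood close to the start. In Ifit1 there were 2, beginning 104 and 85 bases before it, and in Ifit3 there were 2, beginning 156 and 122 bases before it. Isg15 held 3 overlapping matches, the farthest beginning 78 bases before the start, and Rsad2 held 1, beginning 120 bases before it. The windows of Irf7, Irf9, Ifit2, Oasl1, Oasl2, Cmpk2, Herc6, Ifi47, Ifi44 and Xaf1 held none. Of these, Irf7, Ifit2, Cmpk2, Ifi47 and Ifi44 also fell from 2 to 12 months in the time course. Stat2, Ddx58, Oas1a, Bst2, Gbp2 and Igtp held a match and were not called lower there. Whether a match goes with the fall was not tested.

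Many of the genes sit beside each other. On GRCm38 with GENCODE M21, Ifit1 (ENSMUSG00000034459) spans chr19:34640871-34650009 and Ifit3 (ENSMUSG00000074896) spans chr19:34583531-34588731, with Ifit2 and Ifit3b next to them. The 7 OAS genes lie on chromosome 5, but not all together. Oasl2 and Oasl1 lie from 114896936 to 114937915, and the others from 120730333 in Oas2 to 120907521 in Oas1a. The 3 genes of the IFI27 family lie on chromosome 12, from 103434211 in Ifi27 to 103457223 in Ifi27l2b. Some copies share sequence that a read counter can split or drop. Of the 50-base words in transcripts of Ifit3, 51.2% also occur in Ifit3b. The share is 57.6% for Oas1a in Oas1g and 52.3% for Apol9b in Apol9a. Values of these genes are less certain for it, and by how much was not tested. Exons of another gene cover 13.9% of Rtp4, 13.7% of Herc6, 8.77% of Ifi47 and 8.01% of Igtp.

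The level per length differed widely between members. In FPKM, the fragment count scaled by exon length and library total, the median over the time course was 191 for Bst2, the membrane tether that holds budding virus. It was 77.5 for Iigp1, a GTPase that attacks the vacuoles of intracellular parasites, 66.6 for Ifi27, 35.9 for Apol9b and 33.9 for Ifi27l2a. The lowest medians were those of Oas3, at 0.225 FPKM, Oas2, at 0.235 FPKM, and Mx1, at 0.238 FPKM. Most inbred mouse strains carry a defective Mx1 allele and a truncated Oas1b. Bst2 also ranked highest and Mx1 lowest in the genotype experiment, at medians of 253 and 0.222 FPKM. The next 4 places below Bst2 went to Ifi27, Apol9b, Iigp1 and Ifi27l2a there, at 114, 66.3, 45.9 and 23.6 FPKM.

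**Figure D1:**
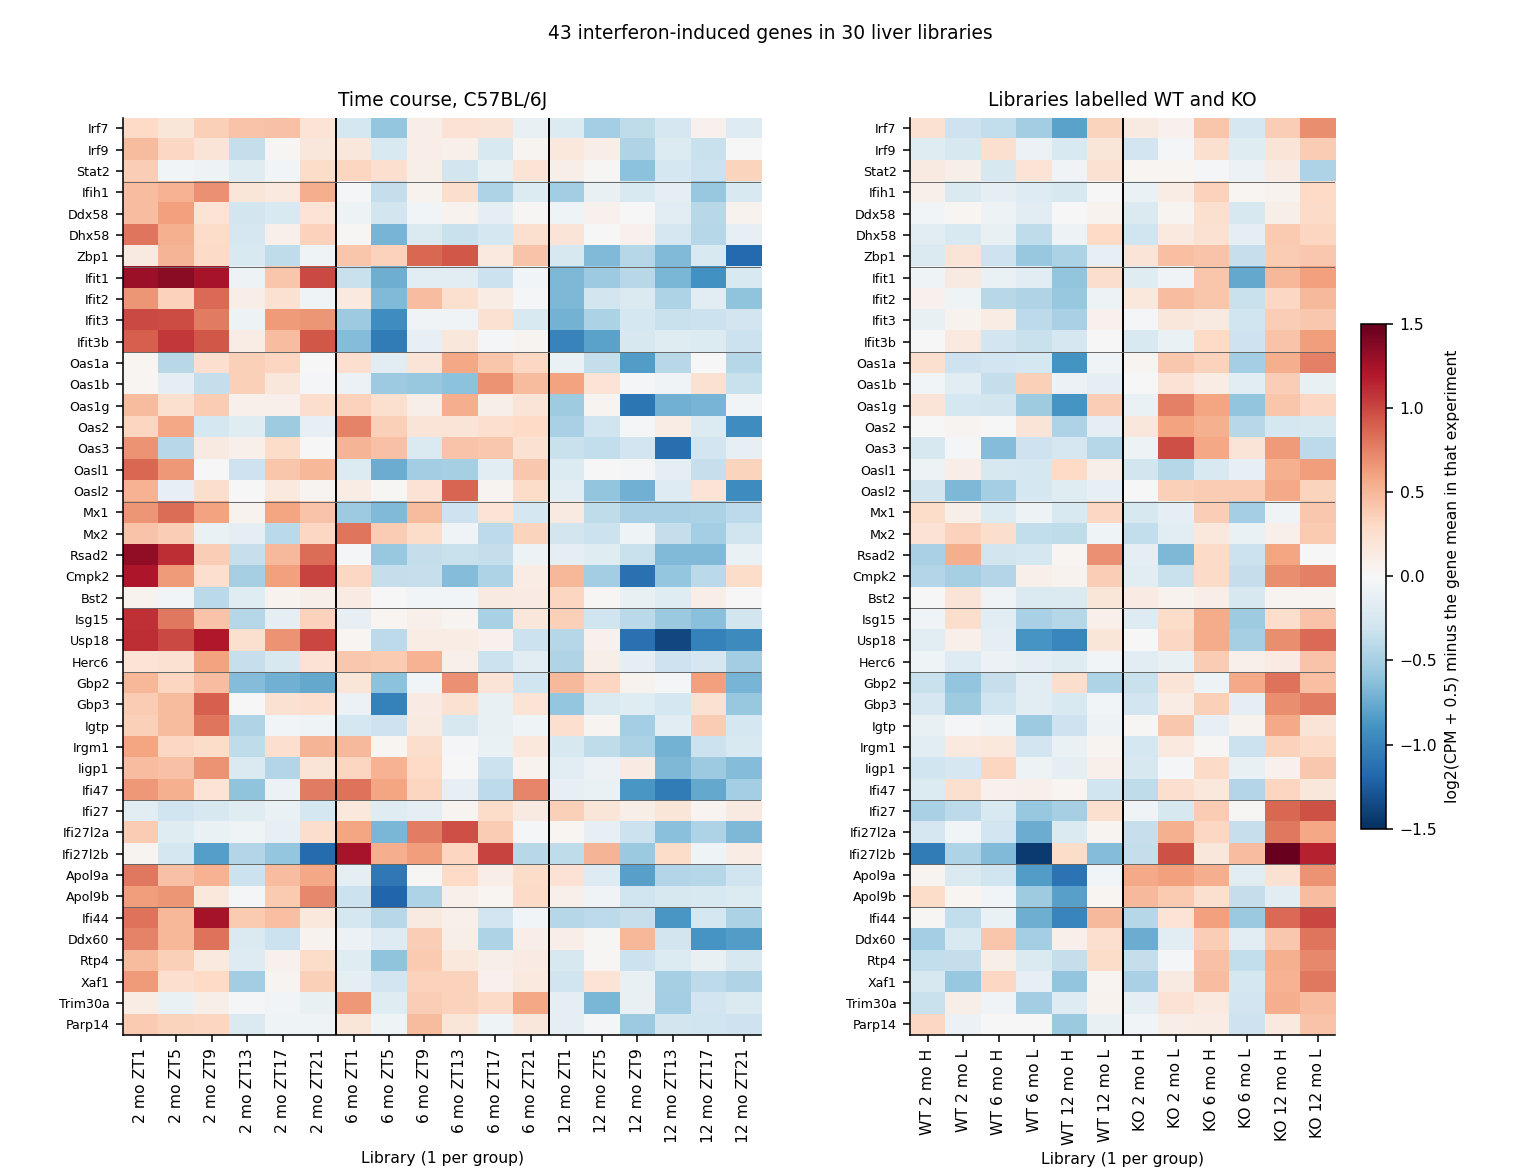
Heat map of log2(CPM + 0.5) minus the gene's mean in its experiment, for 43 genes (rows, grouped by role) in 18 time-course and 12 genotype libraries (columns, 1 library each). Most genes are red in the 2-month time-course libraries other than ZT13 and blue at 12 months, while in the genotype experiment the 12-month libraries labelled KO are the reddest.

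To determine how these genes change with age, the 3 ages of the time course were compared in 1 edgeR model with clock time as a block. At 12 months 22 of the 43 genes fell against 2 months, where 5.27% of all 13361 genes tested did. Ifi27 rose, where 6.61% of all genes did. The median log2 fold change of the 43 was -0.53, beside 0.00069 over all genes, and 38 were negative. In 9 genes every 12-month library lay below every 2-month library, which held for 1.88% of all genes. They were Irf7, Ifih1, Ifit1, Ifit2, Ifit3, Ifit3b, Oas1g, Usp18 and Ifi44. Only for Ifi27 did every 12-month library lie above, as for 2.28% of all genes. With only the 6 libraries taken at the clock times of the genotype experiment, 0 genes of the list passed by edgeR. Of all 13497 genes tested there 165 passed, and 30 of the 43 values were negative, with a median of -0.28. Symbols were listed with such values known, so these shares describe the list. Adjusted p-values below are from edgeR's quasi-likelihood F-test over all genes, with Benjamini-Hochberg adjustment.

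Among the regulators, Irf7, the factor that amplifies interferon production, ranged from 45.6 to 54.7 CPM at 2 months, with a median of 50.5 CPM. At 12 months it ranged from 28.1 to 42.1 CPM, with a median of 34.3 CPM, and at 6 months it reached 46.6 CPM. From 2 to 12 months its log2 fold change was -0.57 ± 0.09 (SE, adjusted p = 0.00061). Irf9, the DNA-binding part of the type I complex, ranged from 21.2 to 37.9 CPM at 2 months and from 19.8 to 30.3 CPM at 12 months, with medians of 30.9 and 25.3 CPM. The ranges overlapped. Its log2 fold change was -0.26 ± 0.11 (adjusted p = 0.14). Stat2, another part of that complex, ranged from 26.7 to 39.4 CPM at 2 months and from 19.6 to 38.5 CPM at 12 months, with medians of 29.5 and 28.0 CPM and -0.17 ± 0.09 (adjusted p = 0.26).

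The IFIT proteins bind foreign RNA ends and block their translation, and all 4 measured genes fell. Ifit1 ranged from 13.1 to 35.9 CPM at 2 months and from 7.14 to 11.7 CPM at 12 months, with medians of 30.6 and 8.87 CPM. Only its 2-month ZT13 library came near the older ages, whose highest value was 13.3 CPM. The log2 fold change was -1.53 ± 0.19 at 12 months (adjusted p = 7e-05) and -1.21 ± 0.18 at 6 months. Ifit3 had a median of 25.4 CPM at 2 months, 13.8 CPM at 6 months and 12.0 CPM at 12 months. The lowest 2-month library, at 14.5 CPM, lay above the highest 12-month library, at 12.6 CPM. Ifit3b ranged from 3.62 to 7.45 CPM at 2 months and from 1.40 to 2.86 CPM at 12 months. From 2 to 12 months Ifit3b changed by -1.39 ± 0.25 and Ifit2 by -0.81 ± 0.16 (log2).

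Usp18, the protease that removes Isg15 from proteins and silences the type I receptor, had the largest fall. It ranged from 6.999 to 14.0 CPM at 2 months, from 4.32 to 6.35 CPM at 6 months and from 1.97 to 6.11 CPM at 12 months. Neither older age overlapped with 2 months. The log2 fold change was -1.77 ± 0.22 at 12 months (adjusted p = 8e-05) and -0.97 ± 0.21 at 6 months (adjusted p = 0.0062). Isg15, the ubiquitin-like modifier itself, had medians of 16.4, 12.7 and 9.64 CPM at 2, 6 and 12 months. Its 12-month ZT1 library, at 16.1 CPM, lay within the 2-month range of 9.10 to 27.0 CPM, and the log2 fold change was -0.69 ± 0.16 (adjusted p = 0.011). Herc6, the ligase that attaches Isg15 in mice, changed by -0.39 ± 0.14 (adjusted p = 0.072).

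Among direct antiviral effectors, Rsad2 (viperin) and its neighbour Cmpk2, which together make an altered nucleotide that stops viral copying, both fell. Rsad2 ranged from 4.26 to 14.7 CPM at 2 months, with medians of 9.11 CPM there and 4.54 CPM at 12 months, and -1.09 ± 0.17 (adjusted p = 0.00078). Its lowest 2-month library, ZT13 at 4.26 CPM, lay within the 12-month range of 3.31 to 5.15 CPM. Cmpk2 changed by -0.89 ± 0.15 on the log2 scale. Mx1 fell from a median of 1.76 CPM to 0.603 CPM, with -1.27 ± 0.30 (adjusted p = 0.013), and its 12-month ZT1 library, at 1.14 CPM, overlapped the lowest 2-month library, at 1.05 CPM. Mx2 changed by -0.46 ± 0.17 (adjusted p = 0.087). Bst2 ranged from 129.9 to 182.7 CPM at 2 months and from 152.0 to 216.0 CPM at 12 months, with 0.10 ± 0.08 (adjusted p = 0.46).

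All 4 sensors of viral RNA and DNA had negative values from 2 to 12 months, and 2 of them passed the test. Ifih1 (MDA5), which detects long double-stranded RNA, ranged from 31.3 to 45.6 CPM at 2 months and from 18.8 to 26.1 CPM at 12 months, with no overlap. Its log2 fold change was -0.74 ± 0.11 (adjusted p = 0.00039). Zbp1, a sensor of unusual nucleic acid helices, fell from 2 to 12 months by 0.63, with an adjusted p of 0.034. At 6 months Zbp1 had its highest median, 15.0 CPM, against 11.4 CPM at 2 months and 7.49 CPM at 12 months. Ddx58 (RIG-I) changed by -0.27 ± 0.12 (adjusted p = 0.16) and Dhx58 by -0.42 ± 0.14 (adjusted p = 0.069).

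The OAS enzymes make the messenger that activates RNase L, and 1 of the 7 genes, Oas1g, passed the test from 2 to 12 months. Oas1g fell from a median of 1.57 CPM to 0.635 CPM, with -1.06 ± 0.27 (adjusted p = 0.020). Oas1a ranged from 2.86 to 5.25 CPM at 2 months, from 3.497 to 6.21 CPM at 6 months and from 2.01 to 3.997 CPM at 12 months. Its medians were 4.45, 4.95 and 2.93 CPM, and the log2 fold change from 2 to 12 months was -0.49 ± 0.16 (adjusted p = 0.058). Oasl2 ranged from 5.59 to 9.08 CPM, from 6.25 to 11.7 CPM and from 2.96 to 7.14 CPM at these ages, with medians of 6.59, 6.95 and 4.62 CPM and -0.56 ± 0.19 (adjusted p = 0.061). For both, the fall from 6 to 12 months passed, at -0.68 ± 0.16 for Oas1a (adjusted p = 0.0089) and -0.70 ± 0.19 for Oasl2 (adjusted p = 0.019).

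Of the GTPases that coat the vacuoles of intracellular microbes, Gbp3, Irgm1, Iigp1 and Ifi47 fell. Iigp1 had medians of 566, 515 and 359 CPM at 2, 6 and 12 months, and -0.52 ± 0.10 from 2 to 12 months (adjusted p = 0.0037). Its lowest 2-month libraries, at ZT17 with 334 CPM and ZT13 with 390 CPM, lay within the 12-month range of 283 to 494 CPM. Ifi47 changed by -0.83 ± 0.11, although at the clock times of the genotype experiment its value was 0.03 ± 0.24, and Irgm1 by -0.66 ± 0.09. Gbp2 ranged from 6.35 to 16.0 CPM at 2 months and from 6.70 to 17.4 CPM at 12 months, with medians of 10.5 and 12.9 CPM and 0.24 ± 0.25 from 2 to 12 months (adjusted p = 0.59). Igtp ranged from 17.96 to 43.6 CPM and from 17.2 to 32.4 CPM, with medians of 28.0 and 23.7 CPM and -0.22 ± 0.17 (adjusted p = 0.44).

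Of the 3 IFI27 family genes Ifi27 rose from 2 to 12 months, and both APOL9 genes fell. Ifi27 encodes a small membrane protein of mitochondria, and it ranged from 78.7 to 91.0 CPM at 2 months and from 100.4 to 124.3 CPM at 12 months, with 0.38 ± 0.08 (adjusted p = 0.0057). Ifi27l2b ranged from 1.59 to 4.27 CPM at 2 months, from 2.98 to 10.4 CPM at 6 months and from 2.66 to 6.11 CPM at 12 months, with medians of 2.76, 6.44 and 4.23 CPM. It rose at 6 months, with a log2 fold change of 1.26 ± 0.25 (adjusted p = 0.0035) and stood at 0.64 ± 0.25 at 12 months (adjusted p = 0.11). Ifi27l2a had medians of 15.6, 23.5 and 12.5 CPM at 2, 6 and 12 months, with -0.39 ± 0.20 from 2 to 12 months (adjusted p = 0.23), and it fell from 6 to 12 months, with -0.75 ± 0.20 (adjusted p = 0.019). Apol9a, whose product binds lipids, ranged from 25.7 to 55.8 CPM at 2 months and from 17.97 to 37.5 CPM at 12 months, with medians of 45.4 and 24.9 CPM and -0.75 ± 0.20 at 12 months (adjusted p = 0.025). Ifi44 ranged from 4.45 to 10.02 CPM at 2 months and from 1.91 to 3.198 CPM at 12 months, with no overlap. Of the other members Ifi44 (-1.19 ± 0.17), Ddx60 (-0.53 ± 0.17) and Parp14 (-0.39 ± 0.12) fell from 2 to 12 months.

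**Figure D2:**
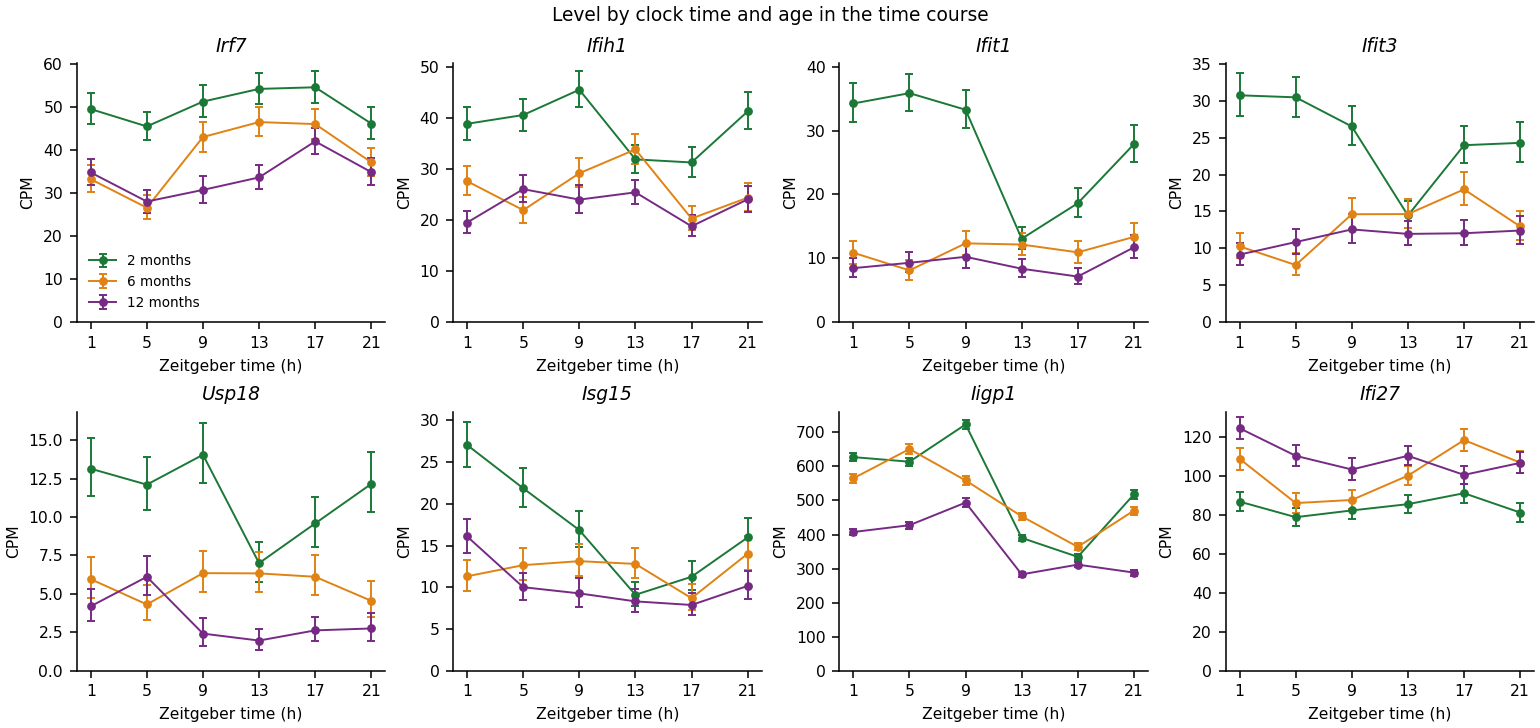
CPM (y axis) of 8 genes against zeitgeber time (x axis, hours) in the time course. Each point is 1 library with its exact Poisson 95% interval and colours mark age. Usp18 lies at 6.999 CPM or above in every 2-month library and at 6.35 CPM or below in every older one. Ifi27 lies at 91.0 CPM or below in every 2-month library and at 100.4 CPM or above in every 12-month one. Its 6-month range, which begins at 85.9 CPM, overlaps the 2-month range.

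The intermediate age split the list. From 2 to 6 months 13 of the 43 genes fell, where 6.89% of all genes did, and the median was -0.15. In the 6 libraries at the clock times of the genotype experiment the direction turned, with a median of 0.14 and 15 of 43 values negative. There 0 genes of the list passed by edgeR, beside 78 of all 13497 genes, and 5 had an unadjusted p under 0.05. Members that fell with all 18 libraries in the fit included Ifit1, Ifit3, Ifit3b, Usp18, Rsad2, Cmpk2, Mx1, Irf7 and Ifih1. Ifi27, Ifi27l2b and Trim30a rose, where 6.83% of all genes did. From 6 to 12 months 14 genes fell, where 7.59% of all genes did, among them Zbp1 (-1.12 ± 0.18), Ifi47 (-0.91 ± 0.11), Trim30a (-0.72 ± 0.11) and 4 genes of the OAS family, Oas1a, Oas1g, Oas3 and Oasl2. None rose by edgeR, where 8.79% of all genes did, and 0 had an unadjusted p under 0.05 in that direction and 0 rose by DESeq2. The count of 14 was 8 without the 6-month ZT13 library and 9 without the 12-month ZT9 library. The count of 3 that rose to 6 months was 1 without any of 6 libraries, ZT1, ZT17 or ZT21 at 2 months and ZT1, ZT13 or ZT21 at 6 months. For the IFIT genes the values from 6 to 12 months were -0.32 ± 0.19 for Ifit1 and -0.17 ± 0.19 for Ifit3.

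The 6-month libraries stood apart in other respects. All 6 listed acute-phase genes of the liver's response to inflammation rose from 2 to 6 months, with a median log2 fold change of 6.15, and their sum ranged from 14546 to 57421 CPM at 6 months, from 1756 to 2304 CPM at 2 months and from 1491 to 4164 CPM at 12 months. The 3 neutrophil markers tested rose too, and the sum of the 5 listed reached 25.2 to 141 CPM at 6 months against 2.95 to 7.84 CPM at 2 months. Of 8 Kupffer cell markers, 4 rose at 6 months, and their sum was 470 to 691 CPM against 435 to 490 CPM at 2 months. At 12 months that sum was 361 to 541 CPM and 0 of the 8 passed against 2 months by edgeR. From 6 to 12 months, beside the 14 members that fell, all 6 acute-phase genes and the 3 neutrophil markers tested fell. So did 6 of 8 Kupffer cell, 2 of 6 sinusoidal endothelial, 1 of 4 cholangiocyte and 1 of 7 hepatocyte markers. Over the same months 4 of 6 stellate cell, 3 of 7 hepatocyte and 3 of 10 B and plasma cell markers rose. From 2 to 6 months 3 of 4 cholangiocyte and 2 of 7 hepatocyte markers rose, while 2 of 6 stellate cell markers and 1 hepatocyte marker fell. Single markers of monocytes, sinusoidal endothelial and erythroid cells rose too. Of 10 B and plasma cell markers, 4 rose from 2 to 12 months, and the sum of the 10 was 60.8 to 540 CPM against 16.3 to 32.7 CPM. Between these ages S100a9 of neutrophils, Reln and Dcn of stellate cells and Trf of hepatocytes rose too. Stab2 of sinusoidal endothelial cells, Spp1 of cholangiocytes and Cps1 of hepatocytes fell. Every listed marker of these types had a count, and their part in the values of the 43 genes was not tested.

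Genes of the pathway around the 43 were looked at too, where 5.27% of all genes fell from 2 to 12 months in the time course. None of 21 interferon genes passed the filter on low counts, 3 of them had any count in the time course, and the highest count in a library was 2. In the genotype experiment 4 had any count, and the highest was 5. Of 5 receptor genes tested, Ifnar1 fell, at -0.29 ± 0.07 (adjusted p = 0.019) from 2 to 12 months. Ifngr1 was at -0.17 ± 0.10 (adjusted p = 0.31). Of 7 other interferon regulatory factors Irf5 fell, with -0.78 ± 0.12, and Irf1 was at -0.09 ± 0.11 (adjusted p = 0.65).

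Other interferon-induced genes moved with the 43 in part. Of 40 tested that are not members, 8 fell from 2 to 12 months by edgeR, where 5.27% of all genes did. By edgeR 0 of them rose, and the median was -0.28. The 8 were Ly6e, Parp12, Dtx3l, Rnf213, Phf11b, Slfn9, Ifi204 and Cxcl10. Cxcl10, the chemokine that draws T cells, stood at -1.08 ± 0.32 (adjusted p = 0.039). Of 11 other GTPases of this kind, Gbp10 and Gbp11 fell, by 2.10 and 2.52 on the log2 scale. Of 16 genes of antigen presentation on MHC class I, H2-Q7 and Psme1 rose, by 0.55 and 0.34, and 0 fell by edgeR. None of 8 other sensors and adaptors and none of 7 negative regulators passed at 12 months by edgeR.

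The genotype experiment also holds libraries of 2 and 12 months from other mice, at ZT13 and ZT17 against ZT5 and ZT21, and they were compared with label and collection (H or L) in the model. There 3 of the 43 genes rose from 2 to 12 months, where 4.93% of all 14097 genes tested did. They were Cmpk2 (0.88 ± 0.16, adjusted p = 0.0076), Ifi27 (0.71 ± 0.19, adjusted p = 0.036) and Oasl1 (0.57 ± 0.15, adjusted p = 0.037). None fell by edgeR, where 5.98% of all genes did, and 0 had an unadjusted p under 0.05 in that direction. The count of 3 was 1 without the KO library of 12 months H or L, 2 months H or L or 6 months H, or the WT library of 2 months H, and it was 5 without KO 6 months L and 6 without WT 2 months L. The median was 0.18. In the libraries labelled WT alone it was -0.026 and 0 genes of the list passed by edgeR, in a fit that called few genes of any kind. Of the 43 genes, 29 had a negative value in the time course and a positive one here, 9 were negative in both and 4 positive in both.

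The difference between the experiments was then tested in all 30 libraries, a comparison added after the opposite signs were seen, so its counts describe the list. In 16 of the 43 genes the change from 2 to 12 months was higher in the genotype experiment, where 2.41% of all 14304 genes tested were, and the median difference was 0.73. In the other direction there was none by edgeR, where 2.29% of all genes passed, and 0 had an unadjusted p under 0.05. The differences were 1.99 ± 0.41 for Usp18 (adjusted p = 0.0069), 1.83 ± 0.34 for Ifit1 (adjusted p = 0.0036) and 1.79 ± 0.23 for Cmpk2 (adjusted p = 0.00069). With the libraries labelled WT alone 1 gene, Cmpk2, remained past the threshold, in a fit with few calls over all genes, and the median was 0.47. Clock time differs between the experiments. In the 6 time-course libraries at the clock times of the genotype experiment, the median from 2 to 12 months was -0.28 and 30 of 43 values were negative. None passed by edgeR there, where 165 of all 13497 genes did, and 12 had an unadjusted p under 0.05.

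**Figure D3:**
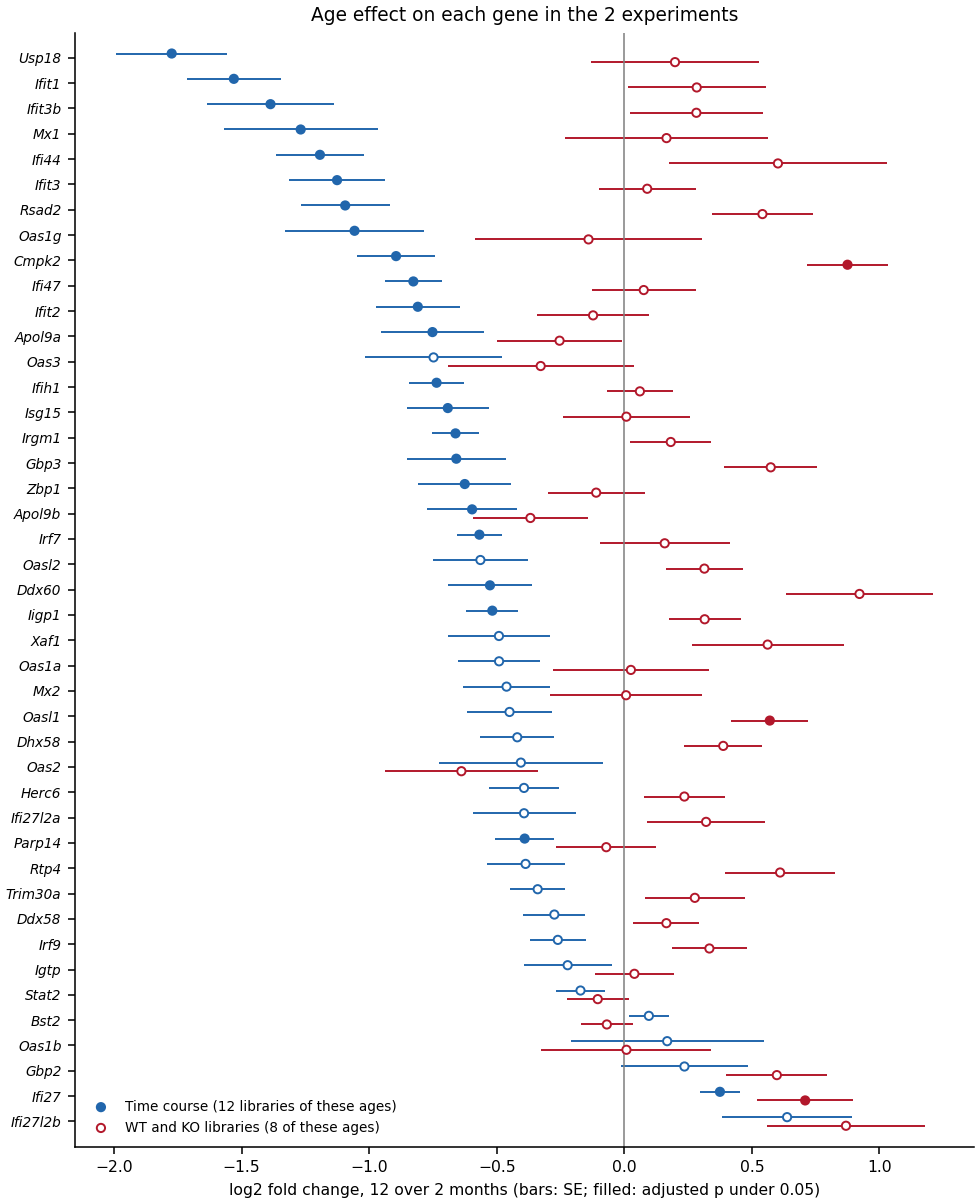
Log2 fold change from 2 to 12 months (x axis) of each gene (y axis) in the time course (blue) and in the libraries labelled WT and KO (red), with SE bars and filled symbols where the adjusted p is under 0.05. The blue points lie left of 0 for 38 of 43 genes, and 29 of these genes have a red point right of 0.

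The time course also shows when in the day the genes were high. A 24-hour cosine was fitted at each age in edgeR. At 2 months 7 of the 43 genes passed, where 5.13% of all genes did. They were Ddx58, Ifit1, Rsad2, Cmpk2, Isg15, Iigp1 and Ifi47, and their fitted peaks lay between ZT23.8 and ZT4.59, around lights on. Isg15 stood at 27.0, 21.9, 16.8, 9.10, 11.3 and 16.0 CPM from ZT1 to ZT21, and the fitted log2 amplitude was 0.73 (adjusted p = 0.0066). Its level was highest just after lights on and lowest just after lights off. Rsad2 stood at 14.7, 12.5, 7.30, 4.26, 7.97 and 10.2 CPM from ZT1 to ZT21, with an amplitude of 0.77 (adjusted p = 0.0059). The 2-month ZT13 library was the lowest of its age for 23 of the 43 genes, and each time point is 1 library.

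At 6 months Irf7, Ifi47 and Apol9b passed, where 4.85% of all genes did. The fitted peak of Ifi47 was ZT2.02, and at 2 months it was ZT1.07, whereas that of Irf7 at 6 months was ZT14.7. At 12 months Cmpk2 passed, with a peak at ZT22.6 and an amplitude of 0.78, where 3.79% of all genes did. The fitted peak lay in the light for 34 of 43 genes at 2 months, 16 at 6 months and 30 at 12 months. Most of these fits did not pass, and the lowest log2 amplitudes were 0.044, 0.030 and 0.035 at these ages. No share over all genes stands beside these counts, so nothing is read from them. An exact permutation test over the 6 values of an age cannot go below p = 0.0333, which 9, 2 and 2 of 42 members reached at 2, 6 and 12 months. Of all 12458 genes 8.66%, 8.30% and 6.46% reached it, and the lowest adjusted p it gave was 0.38, so no member passed.

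The change of the daily pattern between ages was tested directly. None of the 43 genes passed from 2 to 6 months by edgeR, where 0.112% of all genes did, and 12 had an unadjusted p under 0.05. From 2 to 12 months 0 of the 43 passed, where 0% of all genes did, while 4 reached an unadjusted p under 0.05. For 12 against 6 months 0 passed, where 0.0898% of all genes did, and 5 had an unadjusted p under 0.05. A rhythm that passed at 2 months and not later is therefore not shown to differ.

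To describe the 43 genes by genotype label, libraries labelled KO and WT were compared in 6 pairs of the same age and collection. The list was put together with this contrast known, so the values and calls below describe the list and are no test of it. The value was higher in libraries labelled KO for 39 of the 43 genes, with a median log2 fold change of 0.29, beside -0.011 over all 14843 genes. In 5 genes, Zbp1, Oasl2, Ifi27, Ifi27l2b and Apol9a, the model called a higher level, as in 0.64% of all genes. None was called lower, as 0.721% of all genes were, and 0 had an unadjusted p under 0.05 in that direction by edgeR and 0 were called lower by DESeq2. These calls come from the contrast the list was chosen with, so the shares describe the choice and nothing is read from them. Leaving out the 12-month H, 12-month L, 6-month H or 6-month L pair left 2 calls each, and leaving out the 2-month L pair left 3. These counts describe the choice too and are no check of it.

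Ifi27l2b differed most. In the H pairs it stood at 7.02 and 4.14 CPM in KO and WT at 2 months, 10.3 and 5.58 CPM at 6 months, and 28.5 and 11.1 CPM at 12 months. In the L pairs it stood at 18.1 and 6.44 CPM at 2 months, 12.7 and 3.06 CPM at 6 months, and 20.9 and 5.64 CPM at 12 months. Every pair was higher in KO, although the 12-month H library labelled WT exceeded 2 libraries labelled KO, and the log2 fold change was 1.40 ± 0.16.

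Apol9a ranged from 31.5 to 69.9 CPM in WT and from 60.4 to 109 CPM in KO, with 0.83 ± 0.10. Its pair ratios ran from 0.53 at 2 months H to 1.35 at 12 months H on the log2 scale. Oasl2 resembles the OAS enzymes and carries ubiquitin-like domains. It ranged from 7.89 to 11.9 CPM in KO and from 4.71 to 7.17 CPM in WT, with 0.72 ± 0.12. Ifi27 ranged from 154 to 354 CPM in KO and from 122 to 215 CPM in WT, and the 12-month libraries labelled KO stood at 330.7 CPM (H) and 354.1 CPM (L). Usp18 ranged from 6.20 to 16.5 CPM in KO and from 4.29 to 10.2 CPM in WT, with 0.67 ± 0.18, and Oas3 from 1.34 to 4.19 CPM and from 1.03 to 1.87 CPM, with 0.82 ± 0.23.

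Other members had smaller values. Ifit1 ranged from 5.96 to 16.4 CPM in KO and from 6.78 to 12.7 CPM in WT, with medians of 12.1 and 9.90 CPM and 0.20 ± 0.20 on the log2 scale, and it was higher in KO in 3 of 6 pairs. Ifit3 ranged from 11.3 to 18.6 CPM in KO and from 9.81 to 15.1 CPM in WT and was higher in all 6 pairs, with 0.26 ± 0.12. Isg15 ranged from 8.68 to 19.1 CPM in KO and from 8.99 to 15.5 CPM in WT, with medians of 15.6 and 11.9 CPM and 0.28 ± 0.13. Irf7 ranged from 57.3 to 110.9 CPM in KO and from 38.8 to 86.3 CPM in WT, with medians of 81.4 and 53.9 CPM and 0.48 ± 0.14. In these 4 genes the ranges of the labels overlapped. Irf9 ranged from 29.3 to 46.5 CPM in KO and from 30.1 to 42.2 CPM in WT, with 0.11 ± 0.08.

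The smallest values among genes above 1 CPM were those of Stat2 (-0.12 ± 0.11), Rsad2 (-0.06 ± 0.24), Mx2 (-0.01 ± 0.22), Ifi47 (0.03 ± 0.12) and Oasl1 (0.04 ± 0.12). Stat2 ranged from 28.1 to 42.5 CPM in KO and from 32.8 to 45.8 CPM in WT. Rsad2 ranged from 3.94 to 10.2 CPM in KO and from 4.54 to 10.9 CPM in WT, and its pair ratios ran from -1.29 at 2 months L to 0.60 at 6 months H. Mx1, at 0.472 to 1.34 CPM in KO and 0.683 to 1.22 CPM in WT, had -0.08 ± 0.31. Mx2 ranged from 1.88 to 3.54 CPM in KO and from 1.85 to 3.39 CPM in WT, Ifi47 from 17.2 to 29.3 CPM and from 18.96 to 27.8 CPM, and Oasl1 from 17.3 to 36.4 CPM and from 19.5 to 28.9 CPM.

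Among the GTPases, Gbp2 ranged from 8.66 to 19.8 CPM in KO and from 7.13 to 13.4 CPM in WT, with medians of 14.0 and 8.65 CPM and 0.56 ± 0.13. Igtp ranged from 26.0 to 42.2 CPM and from 19.2 to 28.0 CPM, with 0.38 ± 0.11. Iigp1 ranged from 232 to 361 CPM and from 223 to 342 CPM, with 0.13 ± 0.07. For each of the 3 the ranges overlapped. Oas1a ranged from 4.02 to 10.3 CPM in KO and from 2.98 to 7.097 CPM in WT, with 0.57 ± 0.22, and 4 of 6 pairs were higher in KO.

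The pairs were unlike each other. At 12 months H all 43 genes were higher in KO, beside 47.3% of all genes. The median pair ratio there was 0.72 on the log2 scale. Egr1 was not lower in KO in that pair, nor at 2 months L. At 6 months H 38 were higher, beside 48.9% of all genes, with a median of 0.54. At 12 months L 38 genes were higher, beside 50.8%, at 2 months L 34, beside 52.2%, and at 6 months L 24, beside 50.3%. At 2 months H 19 of 43 were higher, beside 49.1%, and the median was -0.09. In 11 genes the KO library was higher in all 6 pairs, as in 4.76% of all genes, and here too nothing is read from the share. They were Zbp1, Ifit2, Ifit3, Oas3, Oasl2, Usp18, Ifi27, Ifi27l2b, Apol9a, Apol9b and Trim30a.

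**Figure D4:**
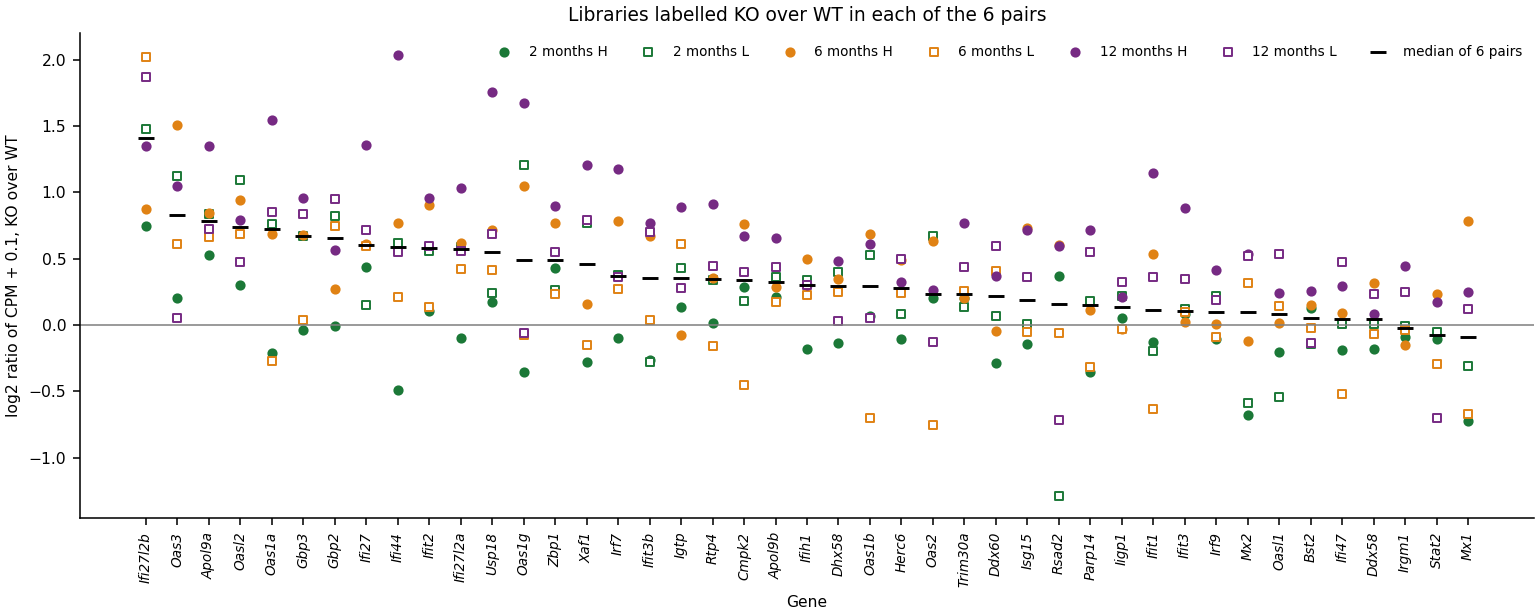
Log2 ratio of CPM + 0.1 in the library labelled KO over the one labelled WT (y axis) for each gene (x axis, ordered by the median), with 1 symbol per pair of age and collection and a bar at the median. The 12-month H pair lies above 0 for all 43 genes, and the 2-month H pair for 19.

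Whether the difference varied with age or collection was tested on all genes. The interaction with age called 0 of the 43 genes by edgeR, where 0.0135% of all genes were called, and 3 had an unadjusted p under 0.05. The interaction with collection called 0 of the 43, where 0.00674% of all genes were called, and 4 had an unadjusted p under 0.05. With 2 pairs per age, the unlike pairs above are thus values and no shown difference.

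In the same contrast, none of 5 receptor genes passed by edgeR. Irf1 was at -0.01 ± 0.10 (adjusted p = 0.99), Ifnar1 at -0.03 ± 0.07 (adjusted p = 0.91) and Ifngr1 at -0.01 ± 0.08 (adjusted p = 0.97). Psmb9, a subunit of the immunoproteasome, rose by 0.54 ± 0.07 (adjusted p = 0.0097), and Ifi204, a DNA sensor, by 0.50 ± 0.10 (adjusted p = 0.044). All 11 other interferon-inducible GTPases tested had positive values, with a median of 0.49, and 0 of them passed by edgeR.

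Markers of cell types moved beside these values. Alb fell by 0.89 and Fgb by 0.48 on the log2 scale, the 2 of 7 hepatocyte markers that passed. All 7 had negative values, with a median of -0.18. Their sum, which weighs the most abundant markers most, ranged from 44732 to 61626 CPM in KO and from 74780 to 91769 CPM in WT. All 8 Kupffer cell, all 5 monocyte and all 7 T cell markers had positive values, with medians of 0.25, 0.35 and 0.25, and 0 of them passed by edgeR. The Kupffer cell sum ranged from 417 to 596 CPM in KO and from 369 to 476 CPM in WT. Of 9 B and plasma cell markers tested 4 had positive and 5 negative values, with a median of -0.055. Among them Ighm rose, by 1.05 ± 0.12 (adjusted p = 0.0075). Every listed marker had a count in both experiments. The part of these cells in the values of the 43 genes was not tested.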

How the data were processed

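Liver polyA RNA was sequenced as paired-end libraries. Both deposited tables hold raw whole-number counts per gene, 1 keyed by symbol and 1 by Ensembl identifier, made by the authors with fastp, HISAT2 and featureCounts on mm10, versions not given in the sources used here. All columns were used. The submitters' strand setting was not given in the sources used here. The identifiers of the genotype table were matched to symbols through GENCODE M21.

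The 43 members and the 22 other gene lists (10 of the pathway, 12 of cell type markers) were chosen with earlier results of these data known. Counts were filtered with filterByExpr, scaled by TMM and tested by edgeR 4.0.16 (quasi-likelihood F-test, R 4.3.3) over all genes at an adjusted p of 0.05, with clock time, pair or label and collection as blocks. DESeq2 1.42.0 was an alternative. Rhythm was a 24-hour cosine. The test was tried on simulated counts with fold changes of 1 and 2 on the log2 scale. Library scores are the median over members of log2(CPM + 0.5) minus the gene mean, and pair ratios used CPM + 0.1. FPKM divides counts by the exon length and the unscaled total. Any member could be named. Values were given for 16 set genes and for the 5 largest and 5 smallest fold changes above 1 CPM, and of the other lists for Irf1, Ifnar1, Ifngr1 and genes past the threshold, except some that are not reported here. The 2 tables were normalized separately, except in the test of the difference between them.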

Additional observations from a re-analysis of the deposited data

Results flagged for a closer look

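In the time course at 6 months, the ZT5 library stood apart from the other 5 of its age, with a median over the 43 genes of -0.284 on the centred log2 scale, and the nearest library was at 0.0262. It was the lowest of its age for 26 of the 43 genes. At 12 months the ZT1 library was far above the others for Isg15, at 16.1 CPM against 10.2 CPM in the next, and for Mx1, at 1.14 CPM against 0.650 CPM. At 6 months the ZT13 library was far above the others for Oasl2, at 11.7 CPM against 7.53 CPM. These 4 came from 51 such comparisons with 6 libraries each, of which chance flags about 1 in 20. In 16 of the 43 genes the change from 2 to 12 months differed between the time course and the genotype experiment, being higher in the latter, as in 2.41% of all genes. With the libraries labelled WT alone 1 gene remained, and the clock times of the experiments differ.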

How the results depend on the processing

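Each age, label and time had 1 library, and whether depth limited the values of a member was not tested. In the time course the lowest count of a library was 6 for Mx1, 4 for Oas1b, 4 for Oas1g, 4 for Oas2 and 8 for Oas3. The labels carry no replicate numbers, so pairs of age and collection were the block of the genotype model and clock time that of the time course. With DESeq2 size factors none of the counts of members or genes called moved by over 1.5 times. For the genotype label (5 members and 202 genes called), no filter gave 14 members and 636 genes, DESeq2 11 and 430, no pair block 1 and 21, the H pairs 0 and 2, and the L pairs 2 and 54. Leaving out a pair gave 2 to 5 members and 45 to 137 genes.
In the time course, no filter gave 2 members higher from 2 to 12 months. No clock-time block gave 1 member higher from 2 to 6 months, and 1082, 986 and 1429 genes called for 6 over 2, 12 over 2 and 12 over 6 months, against 1832, 1587 and 2189. The 2 ages alone gave 9 members lower and 1379 genes from 6 to 12 months. At the clock times of the genotype experiment, a setting chosen after seeing the data, 0, 0 and 1 members were called lower and 0 higher, with 78, 165 and 155 genes. The median was 0.14 from 2 to 6 months and -0.28 from 2 to 12 months. The sign turned for Dhx58 (0.12 from 2 to 6 months) and Ifi47 (0.030 from 2 to 12 months). Leaving out a library gave 15 to 27 members lower and 1 to 2 higher from 2 to 12 months (1043 to 1959 genes, fewest without 2-month ZT9), 1 to 4 higher from 2 to 6 months (1223 to 1891 genes) and 8 to 14 lower from 6 to 12 months (1450 to 2405 genes). The 8 came without 6-month ZT13 and 9 without 12-month ZT9, and 1450 without 12-month ZT5. The 2 higher from 2 to 12 months came without 12-month ZT1. The 1 higher from 2 to 6 months came without ZT1, ZT17 or ZT21 at 2 months, or ZT1, ZT13 or ZT21 at 6 months.
In the genotype experiment, the WT labels alone gave 0 members higher from 2 to 12 months, a median of -0.026, and 0, 29 and 1 genes for 6 over 2, 12 over 2 and 12 over 6 months. Leaving out a library gave 1 to 6 members higher from 2 to 12 months and 615 to 1681 genes, 22 to 288 genes for 6 over 2 months and 1 to 125 genes for 12 over 6 months. For the difference between experiments, WT labels alone gave 1 member, 36 genes and a median of 0.47. In the exact permutation test 2 members stood at the smallest p it allows at 12 months, 0.0333 unadjusted, and none passed after adjustment. The causes were not tested.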
